A study of Mus musculus with 191 samples.

Results

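The genes measured here are Nr1d1 and Nr1d2, which encode the nuclear receptors REV-ERBα and REV-ERBβ. Their rows were taken by Ensembl identifier from 5 tissue tables, and both genes were present in every table, 2 of the 16335 genes listed for bone marrow, of 17223 for gut, 14451 for liver, 17360 for lung and 18555 for skin. In bone marrow, gut, liver and lung, wild-type C57BL/6 mice given anti-Ly6G (clone 1A8, 18 libraries per tissue), an antibody against a neutrophil surface protein, were set against mice given control IgG (18 libraries per tissue). Both antibodies were given at 3 µg per g of body weight for 2 days, and tissue was taken from 3 mice per group at Zeitgeber time (ZT, the hour counted from lights on) 1, 5, 9, 13, 17 or 21. Ear skin came from Mrp8CRE; iDTR mice (16 libraries) and Mrp8CRE; Bmal1-flox mice (15 libraries), set against control mice labelled C57BL/6 wild type (16 libraries). The iDTR and control mice received diphtheria toxin at 10 µg per kg for 2 days, and the Bmal1-flox mice received none. Skin had 1 mouse per genotype at each of 16 ZT, with no Bmal1-flox library at ZT 16. Mrp8CRE drives recombination in neutrophils, and which skin cells carried the toxin receptor or lost Arntl was not measured. The labels give no ages, and no strain for the 2 Mrp8CRE lines.

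REV-ERBα and REV-ERBβ are heme-binding repressors. They sit on response elements shared with the ROR receptors, which activate, and recruit the corepressor NCoR with the histone deacetylase HDAC3. The activators CLOCK and BMAL1 switch on both Nr1d genes through E-boxes, and the REV-ERB proteins repress Arntl, the gene of BMAL1, which closes a loop of the circadian clock. In liver they also restrain genes of lipid and glucose metabolism, and in macrophages inflammatory genes.

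Nr1d1 lies on chromosome 11 at 98767932 to 98775333 and Nr1d2 on chromosome 14 at 18204054 to 18239127, both on the minus strand of GRCm38. The windows from 250 bases before to 50 bases after each start, from RefSeq on GRCm38.p6, are shown because the clock acts on these genes through their promoters. They cover chr11:98775328-98775627 for Nr1d1 and chr14:18239057-18239356 for Nr1d2 and are written 5′ to 3′ along the gene. Capitals mark the matches to the motifs searched.
Nr1d1: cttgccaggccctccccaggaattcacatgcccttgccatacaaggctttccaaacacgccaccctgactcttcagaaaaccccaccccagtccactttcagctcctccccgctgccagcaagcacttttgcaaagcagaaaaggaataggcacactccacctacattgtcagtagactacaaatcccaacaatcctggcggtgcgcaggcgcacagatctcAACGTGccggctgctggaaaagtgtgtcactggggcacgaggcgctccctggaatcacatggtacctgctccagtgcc
Nr1d2: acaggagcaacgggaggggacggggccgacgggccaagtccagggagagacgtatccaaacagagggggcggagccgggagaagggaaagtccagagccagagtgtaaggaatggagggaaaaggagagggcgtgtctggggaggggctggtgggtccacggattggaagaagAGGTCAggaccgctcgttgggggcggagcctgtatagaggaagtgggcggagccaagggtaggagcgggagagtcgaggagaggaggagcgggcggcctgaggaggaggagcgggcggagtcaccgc
Both strands were searched for CACGTG (E-box), CACGTT (E-prime box), AGGTCA (the half-site of nuclear receptors) and TTATGTAA (D-box). The Nr1d1 window held 1 E-prime box on the opposite strand, 28 bases before the start, a motif found in 4.68% of 32851 mouse promoter windows. The Nr1d2 window held 1 half-site, 77 bases before the start, found in 16.3% of windows. The E-box (7.15% of windows) and the D-box (0.938%) were in neither window.

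Before the results, 3 properties of the data bear on them. In bone marrow, gut and liver, the number in the library title ran through the labelled ZT and treatments from ZT 1 on in 36 of 36 libraries. In lung, numbers 4 to 36 ran through the 12 combinations of ZT and treatment in the same cycle but began at ZT 21. Lung numbers 1 to 3 carried anti-Ly6G labels of ZT 5, ZT 13 and ZT 17, out of that order. By the scheme of the other tissues, 0 of 36 lung libraries were in step in ZT and 8 in treatment. The labels of all lung libraries are therefore in doubt. In skin, Gt(ROSA)26Sor, the locus into which many transgenes are inserted, was 0.242 to 1.53 in iDTR, 21.0 to 30.2 in Bmal1-flox and 0.225 to 1.83 in control libraries, which puts the wild-type label of the control in doubt. Part of the mice lived under a light cycle inverted by 12 h, and neither these mice nor the tissues that came from a single mouse are named in the labels. Ly6g, the gene of the depleted antigen, averaged 118 ± 18.6 in anti-Ly6G and 104 ± 10.6 in IgG bone marrow (SD, n = 18 each), and its transcript does not count neutrophils. The summed level of 10 neutrophil markers ran from 24845 to 44430 in anti-Ly6G marrow and from 22086 to 32562 in IgG marrow. Their part in the results was not tested. Depth was 7.68 to 30.9 M reads per library. This and the recovered reads below assume that the smallest value of each column is a gene without reads.

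Levels are given as normalized signal, and tables were normalized separately, so the order of tissues is a description. Nr1d1 averaged 353 ± 207 in iDTR skin (SD, n = 16), 138 ± 62.9 in Bmal1-flox skin (n = 15) and 141 ± 68.6 in control skin (n = 16). It averaged 109 ± 124 in anti-Ly6G and 100.1 ± 109 in IgG lung, 78.0 ± 74.7 in anti-Ly6G and 82.3 ± 85.5 in IgG gut, and 29.2 ± 35.4 in anti-Ly6G and 34.02 ± 44.4 in IgG liver (n = 18 each). It was lowest in bone marrow, at 3.84 ± 2.26 in anti-Ly6G and 3.98 ± 2.60 in IgG libraries. These SD run over the whole day and hold its wave. By 1 SD, neighbours in this order overlapped, and the skin groups lay clear of bone marrow. Nr1d2 followed the same order with smaller gaps, from 164 ± 44.8 in iDTR, 135 ± 37.9 in Bmal1-flox and 154 ± 38.1 in control skin to 16.1 ± 6.22 in anti-Ly6G and 16.9 ± 5.37 in IgG marrow. Between them it averaged 104 ± 84.3 in anti-Ly6G and 110.2 ± 79.7 in IgG lung, 74.9 ± 48.4 in anti-Ly6G and 75.7 ± 48.3 in IgG gut, and 46.9 ± 37.9 in anti-Ly6G and 55.4 ± 47.6 in IgG liver. The marrow values rested on few reads, between 14.8 and 190.5 recovered reads per library for Nr1d1.

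Per kilobase of mRNA (2721 bases for Nr1d1 and 4663 for Nr1d2), the balance of the 2 genes differed between tissues. Mean levels per kilobase in IgG marrow were 1.46 for Nr1d1 and 3.62 for Nr1d2, so Nr1d2 was the more abundant transcript there. In IgG liver they were 12.5 for Nr1d1 and 11.9 for Nr1d2, close to even, and in IgG gut they were 30.3 for Nr1d1 and 16.2 for Nr1d2. In iDTR skin the levels per kilobase were 129.9 for Nr1d1 and 35.2 for Nr1d2, against 51.8 for Nr1d1 and 32.95 for Nr1d2 in control skin. No test was made between genes. The 3′ end of Nr1d1 overlaps the thyroid hormone receptor gene Thra on the other strand. The shared stretch is 263 exonic bases, 8.5% of those of Nr1d1, and reads there cannot be told apart because strand use in the counting is not stated. No gene overlapped the exons of Nr1d2.

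In bone marrow, the Nr1d2 wave peaked earlier in anti-Ly6G than in IgG mice, while no difference in the mean over the day passed the test. With all ZT together, the log2 difference (anti-Ly6G minus IgG, of value + 1) was -0.02 (SE 0.12, adjusted p = 0.949) for Nr1d1 and -0.09 (SE 0.09, adjusted p = 0.501) for Nr1d2, where limma called 17.1% of 14289 genes (9.95% higher and 7.16% lower). In bulk tissue, fewer cells of a type and less RNA per cell cannot be told apart.

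The values of Nr1d2 by ZT show where the marrow groups parted. At ZT 1 the anti-Ly6G libraries had 15.0, 15.7 and 19.4, against 11.7, 11.9 and 12.0 in IgG. At ZT 5 they had 22.8, 27.8 and 27.96 in anti-Ly6G and 16.7, 20.2 and 20.9 in IgG. In the early light phase every anti-Ly6G library was thus above every IgG library. At ZT 9 the groups overlapped, with 20.1, 20.5 and 21.7 in anti-Ly6G and 18.0, 24.7 and 26.1 in IgG. At ZT 13 the order was the opposite, with 12.0, 12.5 and 13.4 in anti-Ly6G and 18.1, 21.7 and 25.95 in IgG. The lowest IgG library at ZT 13 was above the highest anti-Ly6G library. At ZT 17 the values were 10.4, 10.8 and 10.98 in anti-Ly6G and 13.6, 13.7 and 16.3 in IgG, again without overlap. At ZT 21 they were 9.02, 9.46 and 9.92 in anti-Ly6G and 9.08, 11.2 and 12.5 in IgG, and overlapped. A lack of overlap between 3 and 3 libraries, here and below, is a description and not a test. The share of all genes without overlap was not counted. Thra, the neighbour of Nr1d1, also lacked overlap at ZT 17 in marrow and at ZT 13 in gut and in liver. At the other times in these tissues its groups overlapped.

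At single times, Nr1d2 fell at ZT 13, by 0.74 on the log2 scale (SE 0.13, adjusted p = 0.00138 in limma), where 6.15% of genes were called. Its log2 differences of 0.45 at ZT 1 (SE 0.13, adjusted p = 0.0713) and 0.42 at ZT 5 (SE 0.13, adjusted p = 0.11) did not pass, and neither did -0.40 at ZT 17 (SE 0.13, adjusted p = 0.542). At ZT 1, 1.15% of genes were called, at ZT 5 0.441%, at ZT 9 0.133% and at ZT 17 0.014%. Nr1d1 had 0.883, 1.87 and 2.12 in anti-Ly6G libraries and 2.42, 2.96 and 5.16 in IgG libraries at ZT 13, groups that did not overlap. Its log2 difference there was -0.77 (SE 0.25, adjusted p = 0.0609). At ZT 9, Nr1d1 had 4.08, 4.29 and 5.62 in anti-Ly6G and 6.37, 7.12 and 8.49 in IgG (-0.56, SE 0.25, adjusted p = 0.315). At ZT 17 it had 2.16, 2.45 and 3.18 in anti-Ly6G and 1.35, 1.38 and 1.72 in IgG (0.53, SE 0.25, adjusted p = 0.736), so there the anti-Ly6G libraries were the higher ones. At ZT 5 one IgG library stood low, with 3.04, 6.63 and 9.59 in IgG beside 6.96, 8.06 and 8.19 in anti-Ly6G.

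**Figure D1:**
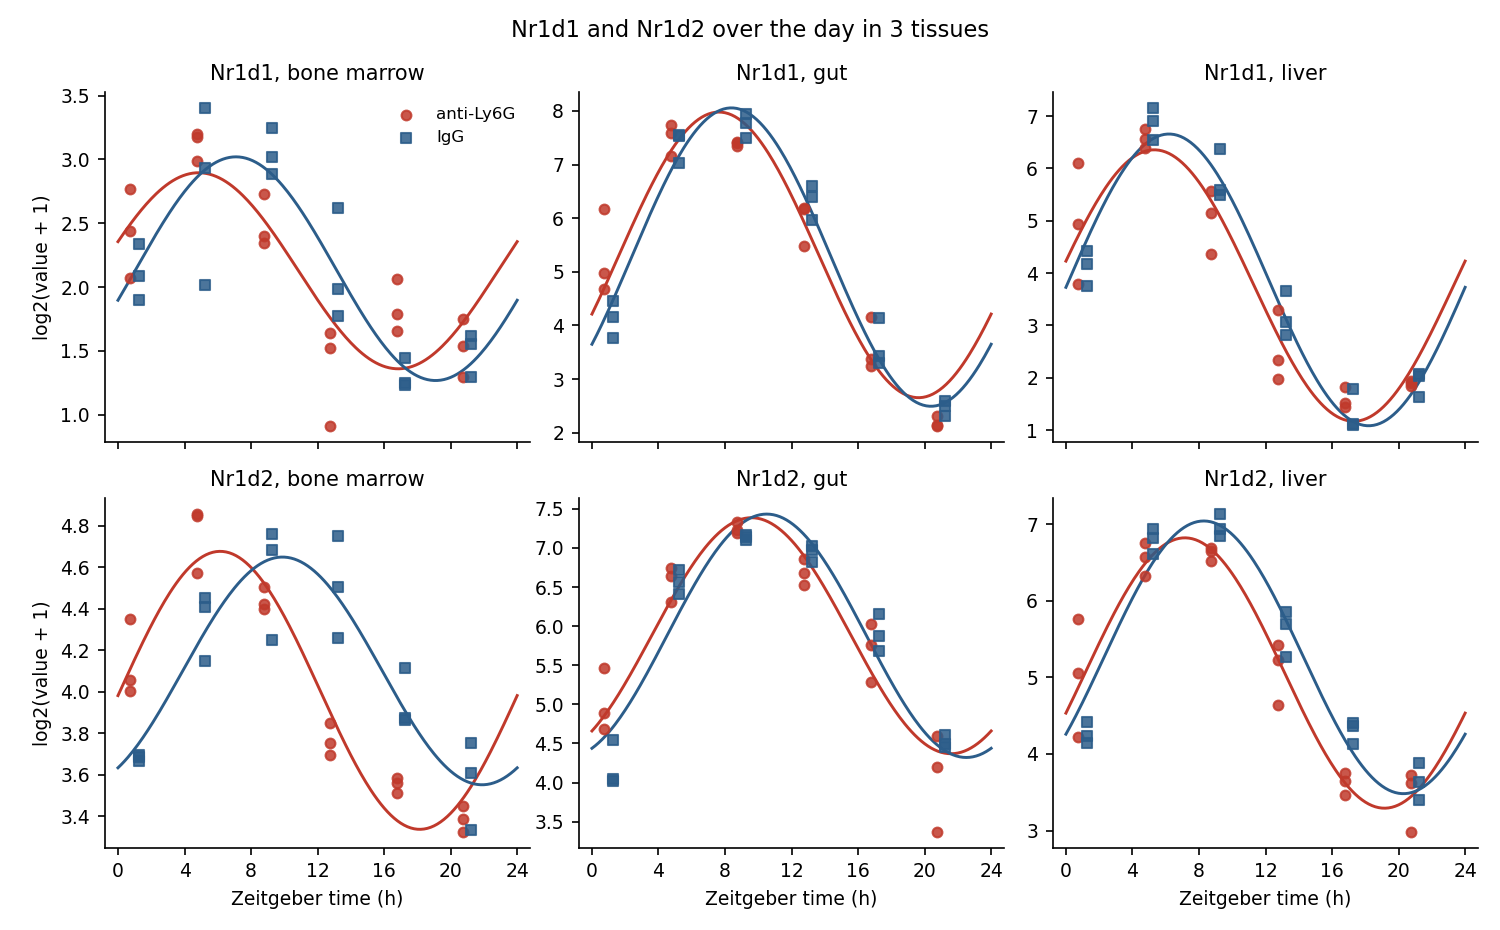
Levels of Nr1d1 (top) and Nr1d2 (bottom) as log2(value + 1) against Zeitgeber time in hours, 1 point per library, anti-Ly6G drawn just left of IgG, with the fitted 24 h wave of each group. The fitted Nr1d2 wave in bone marrow peaked at 6.14 h in anti-Ly6G and 9.89 h in IgG libraries, while in gut and liver the anti-Ly6G peaks differed from the IgG peaks by -1.14 to -0.75 h.

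A 24 h wave was fitted in each group. In marrow it passed for both genes in both groups, where 0.406% of genes passed in anti-Ly6G and 1.62% in IgG libraries, and Nr1d2 had the smallest p of all 14289 genes in either group. The log2 amplitude of Nr1d2 was 0.67 (SE 0.06) in anti-Ly6G and 0.55 (SE 0.06) in IgG marrow, and that of Nr1d1 was 0.77 (SE 0.12) in anti-Ly6G and 0.88 (SE 0.12) in IgG marrow. Nr1d2 peaked at ZT 6.14 (SE 0.319 h) in anti-Ly6G and at ZT 9.89 (SE 0.390 h) in IgG marrow, a shift of -3.74 h (SE 0.504). The wave differed between the treatments (adjusted p = 0.000906, F test of both wave terms in limma). Nr1d2 was the only gene called, 0.007% of those tested. A p-value beside a shift, here and below, is that of this F test of amplitude and peak time together. Nr1d1 peaked at ZT 4.85 (SE 0.580 h) in anti-Ly6G and at ZT 7.09 (SE 0.508 h) in IgG marrow, a shift of -2.24 h (SE 0.771). For Nr1d1 the F test did not pass (p = 0.0199, adjusted p = 1). Without ZT 13 the Nr1d1 shift was -1.19 h, and without ZT 21 it was -3.17 h. Whether the shifts of the 2 genes differ was not tested. Without the ZT 1 libraries the adjusted p for Nr1d2 was 0.127, and without those of ZT 13 it was 0.4. The Nr1d2 shift lay between -4.11 and -3.30 h over all alternatives.

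Gut showed the same order of peaks with much larger waves, and no difference between the treatments passed. Nr1d1 had 24.7, 30.6 and 71.4 in anti-Ly6G and 12.6, 16.8 and 21.0 in IgG libraries at ZT 1. At ZT 5 it reached 141, 190.9 and 213 in anti-Ly6G and 129.9, 184 and 187 in IgG, and at ZT 9 162, 168 and 170.1 in anti-Ly6G and 179, 219 and 244 in IgG. At ZT 21 it was down to 3.38, 3.40 and 3.94 in anti-Ly6G and 3.99, 4.68 and 5.04 in IgG. The anti-Ly6G libraries were all above IgG at ZT 1 and all below at ZT 9 and ZT 21, which is no test. In limma the log2 difference was -0.35 at ZT 9 (SE 0.28, adjusted p = 0.71) and -0.28 at ZT 21 (SE 0.28, adjusted p = 0.786). Of all genes, 0% were called at ZT 9 and 0.0396% at ZT 21. The log2 difference at ZT 1 was 1.16 (SE 0.28, p = 0.000284, adjusted p = 0.257), where 0.0264% of 15158 genes were called. Single libraries moved it: without the anti-Ly6G library at 24.7 the difference was 1.46 (adjusted p = 0.0347), and without that at 71.4 it was 0.71 (adjusted p = 0.502). Over all alternatives the adjusted p was 0.0347 to 0.848.

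Nr1d2 in gut had 24.7, 28.6 and 43.1 in anti-Ly6G and 15.3, 15.5 and 22.4 in IgG libraries at ZT 1. It was highest at ZT 9, at 145, 149 and 160.5 in anti-Ly6G and 136, 140.2 and 142 in IgG. At ZT 21 it was 9.33, 17.4 and 23.2 in anti-Ly6G and 20.9, 21.6 and 23.4 in IgG. The groups did not overlap at ZT 1 and ZT 9, and overlapped at ZT 21. The log2 difference of Nr1d2 was 0.81 at ZT 1 (SE 0.21, adjusted p = 0.282) and 0.12 at ZT 9 (SE 0.21, adjusted p = 0.894). Over the day the differences were 0.04 (SE 0.14, adjusted p = 0.928) for Nr1d1 and 0.00 (SE 0.11, adjusted p = 0.998) for Nr1d2, where 0.0132% of genes were called.

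The gut waves of both genes passed in both treatments, as did those of 24.6% of genes in anti-Ly6G and 33.6% in IgG libraries. Fitted peak-to-trough folds were 40.1 in anti-Ly6G and 47.2 in IgG for Nr1d1, and 8.10 in anti-Ly6G and 8.64 in IgG for Nr1d2. Nr1d1 peaked at ZT 7.63 (SE 0.212 h) in anti-Ly6G and ZT 8.38 (SE 0.203 h) in IgG gut, a shift of -0.75 h (SE 0.293, adjusted p = 0.749). Nr1d2 peaked at ZT 9.59 (SE 0.302 h) in anti-Ly6G and ZT 10.5 (SE 0.293 h) in IgG gut, a shift of -0.92 h (SE 0.420, adjusted p = 0.814). No gut gene was called for a differential wave (0%), with 984 genes at an unadjusted p under 0.05. Without ZT 1 the shifts were -0.23 h for Nr1d1 and -0.31 h for Nr1d2. Libraries 1 and 6 of anti-Ly6G gut held transcripts of other organs, and without them the ZT 1 differences were 1.31 for Nr1d1 and 0.87 for Nr1d2.

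In liver the fitted peaks came earlier than in gut, and no difference between the treatments passed. Nr1d1 was highest at ZT 5, at 83.2, 93.9 and 107 in anti-Ly6G and 91.6, 119 and 142 in IgG libraries. At ZT 9 it was 19.6, 34.5 and 46.7 in anti-Ly6G and 43.9, 47.2 and 81.4 in IgG. At ZT 17 it was 1.71, 1.85 and 2.54 in anti-Ly6G and 1.14, 1.16 and 2.43 in IgG, the lowest time of its day. The groups overlapped at each of these times. At ZT 1 the anti-Ly6G libraries were spread over 12.9, 29.6 and 67.4, against 12.5, 17.0 and 20.4 in IgG.

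Nr1d2 in liver had 17.6, 32.2 and 53.6 in anti-Ly6G and 16.6, 17.9 and 20.4 in IgG libraries at ZT 1, so the spread at that time was again in the anti-Ly6G group. At ZT 9 it had 91.1, 99.8 and 103 in anti-Ly6G and 114, 122 and 139.5 in IgG, without overlap. At ZT 17 it had 10.1, 11.6 and 12.4 in anti-Ly6G and 16.6, 19.7 and 20.2 in IgG, also without overlap. The log2 differences were 0.75 at ZT 1 (SE 0.24, adjusted p = 0.494), -0.35 at ZT 9 (SE 0.24, adjusted p = 0.745) and -0.68 at ZT 17 (SE 0.24, adjusted p = 0.628). Single libraries moved the difference at ZT 1, which was 0.37 without the anti-Ly6G library at 53.6 and 1.145 without that at 17.6, and did not pass in either case. Of all genes, 0.008% were called at ZT 1, 0.272% at ZT 5 and 0.016% at each of ZT 9 and ZT 17. Over the day, Nr1d2 differed by -0.21 (SE 0.12, adjusted p = 0.469) and Nr1d1 by -0.11 (SE 0.17, adjusted p = 0.84), where 1.4% of 12504 genes were called (0.776% higher and 0.624% lower). Without the ZT 1 libraries the Nr1d2 difference was -0.40 and passed (adjusted p = 0.0191).

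The liver waves passed for both genes, with 34.7% of genes passing in anti-Ly6G and 42.9% in IgG libraries. Peak-to-trough folds of Nr1d1 were 36.4 in anti-Ly6G and 47.6 in IgG, and those of Nr1d2 were 11.6 in anti-Ly6G and 11.8 in IgG. Nr1d1 peaked at ZT 5.31 (SE 0.241 h) in anti-Ly6G and ZT 6.195 (SE 0.224 h) in IgG liver, a shift of -0.89 h (SE 0.329, adjusted p = 0.508). Nr1d2 peaked at ZT 7.15 (SE 0.239 h) in anti-Ly6G and ZT 8.29 (SE 0.237 h) in IgG liver, a shift of -1.14 h (SE 0.337, adjusted p = 0.421). In liver 0.008% of genes were called for a differential wave. Without ZT 1 the liver shifts were -0.53 h for either gene.

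**Figure D2:**
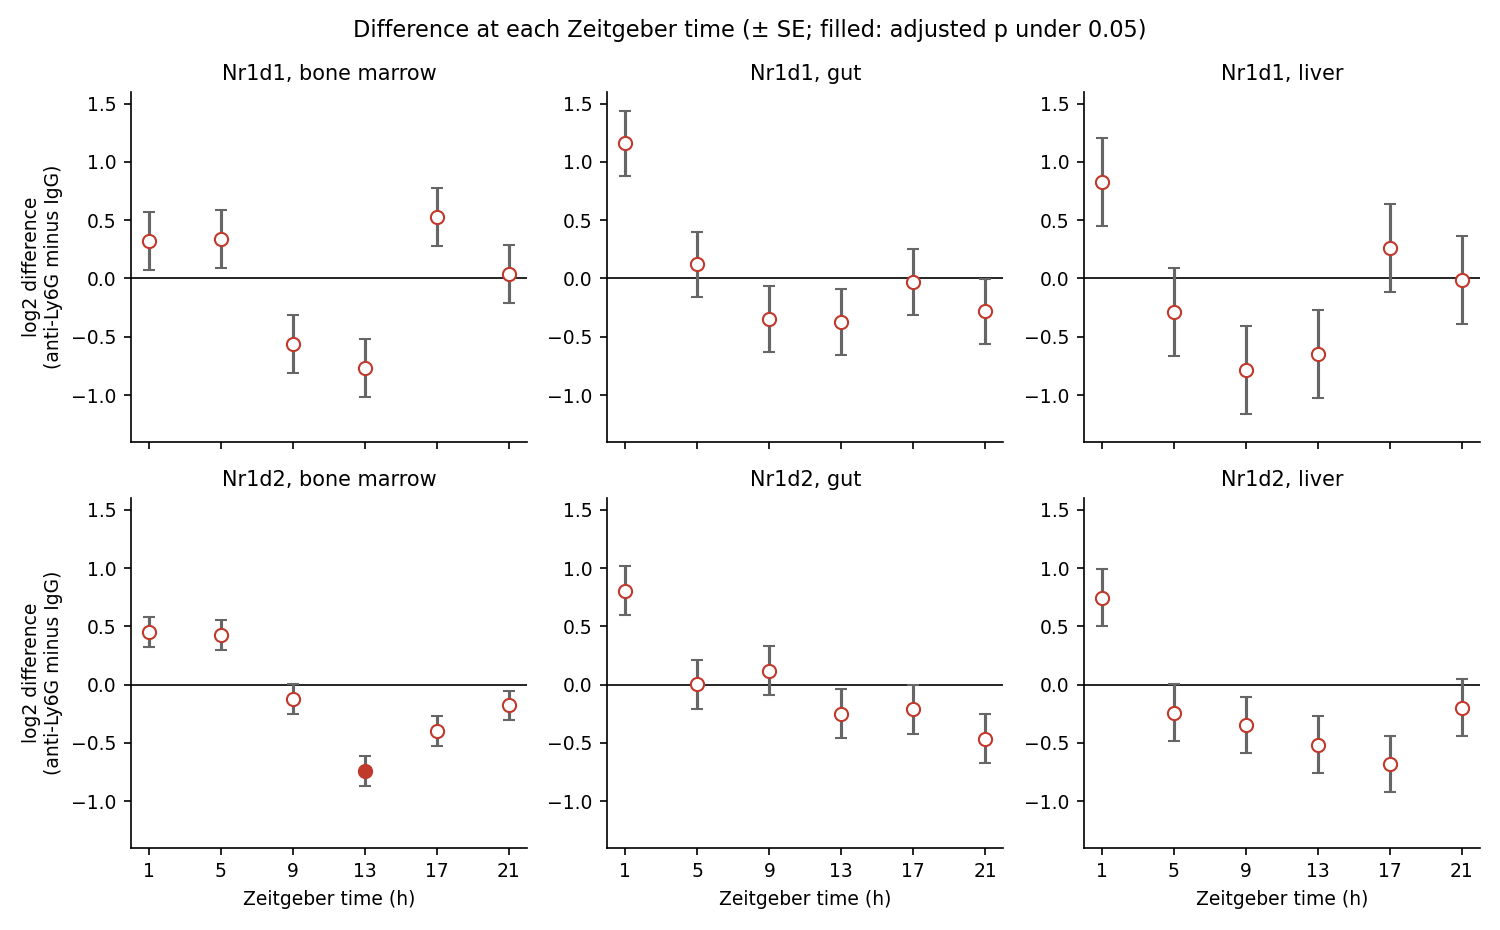
Log2 difference (anti-Ly6G minus IgG, of value + 1) in Nr1d1 (top) and Nr1d2 (bottom) at each Zeitgeber time in hours, 3 libraries per group, with bars of 1 SE and filled points where the adjusted p was under 0.05. The only filled point is Nr1d2 in bone marrow at ZT 13, at -0.74, and at ZT 1 all 6 differences lie above 0.

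The fitted peak of both genes was earlier in anti-Ly6G than in IgG in bone marrow, gut and liver. The shifts ran from -3.74 to -0.75 h and had no test of their own. Among these 6 comparisons, only that of Nr1d2 in marrow passed the F test of both wave terms. Sizes of shift were not tested between tissues, and the tissues may share mice. Nr1d2 peaked after Nr1d1 in each of the 11 groups, lung as labelled among them. The interval from the Nr1d1 peak to the Nr1d2 peak was 1.30 h (SE 0.662) in anti-Ly6G and 2.80 h (SE 0.640) in IgG marrow, with the genes treated as independent. It was 1.95 h in anti-Ly6G and 2.12 h in IgG gut, and 1.84 h in anti-Ly6G and 2.09 h in IgG liver. In skin it was 1.04 h (SE 0.717) in iDTR, 4.11 h (SE 0.672) in Bmal1-flox and 3.61 h (SE 0.620) in control libraries. The intervals have no test. Nr1d1 also had the larger log2 amplitude in each group, by a ratio of 1.15 in anti-Ly6G marrow and up to 2.05 in control skin.

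**Figure D3:**
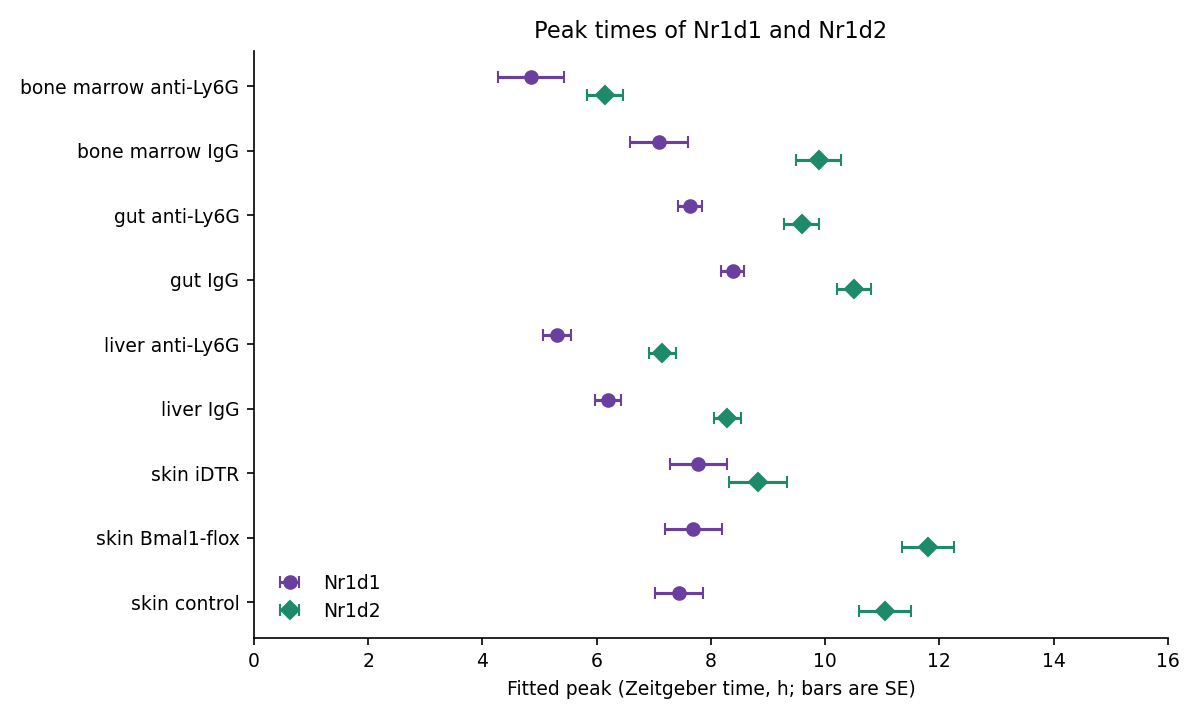
Fitted peak times in hours of Zeitgeber time (horizontal axis) of Nr1d1 (circles) and Nr1d2 (diamonds) in the 9 groups of bone marrow, gut, liver and skin (vertical axis), with bars of 1 SE. The Nr1d2 peak lies to the right of the Nr1d1 peak in each group, and the peaks of both genes are earlier in anti-Ly6G than in IgG groups.

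In ear skin, Nr1d1 was higher in iDTR than in control mice at all of 16 ZT, and Nr1d2 was not. Nr1d1 had a lowest value of 159, a median of 251 and a highest of 876 in iDTR libraries, against 59.3, 128 and 276 in control libraries. Taken over the whole day, the ranges overlapped. At ZT 4 the iDTR library had 876 and the control library 198, and at ZT 12 they had 522 and 154. At ZT 21 the iDTR library had 219 and the control library 59.3. The smallest gap was at ZT 3, with 202 in iDTR and 186 in control. Nr1d1 rose by a log2 difference of 1.28 (SE 0.11), 2.43-fold in value + 1, with an adjusted p of 2.32e-14 in limma. In this comparison 63% of 15946 genes were called (30.6% higher and 32.4% lower), so a call alone does not set Nr1d1 apart.

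Nr1d2 in iDTR skin had a lowest value of 116, a median of 139.5 and a highest of 231, against 96.9, 146 and 220.1 in control skin. It was higher in iDTR at 12 of 16 ZT, and its log2 difference was 0.09 (SE 0.07, adjusted p = 0.258), and without the iDTR library of ZT 13 it was 0.15 and passed (adjusted p = 0.0163). Thra, the antisense neighbour of Nr1d1, had the opposite direction and was lower at 16 of 16 ZT (log2 difference -0.38, SE 0.04, adjusted p = 6.56e-11). The summed level of the 7 neutrophil markers in the skin table was 30.6 to 119 in iDTR and 15.8 to 41.3 in control libraries. That of 2 adipocyte markers was 19.9 to 82.4 in iDTR and 85.9 to 123 in control. The part of these cell markers in the Nr1d1 difference was not tested.

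In Bmal1-flox skin, Nr1d1 had a lowest value of 68.1, a median of 120.5 and a highest of 239.9, beside the control values above. Its log2 difference against control was -0.04 (SE 0.11, adjusted p = 0.883). Nr1d2 had 74.4, 133 and 192 and was lower than control at 14 of 15 shared ZT, with a log2 difference of -0.19 (SE 0.07, p = 0.0104). Its adjusted p was 0.114, where 5.63% of genes were called (2.41% higher and 3.21% lower). Arntl itself averaged 40.6 ± 12.5 in Bmal1-flox (n = 15) and 39.6 ± 12.3 in control skin (SD, n = 16), so whole skin gives no check of its deletion in neutrophils. Both skin comparisons share the control libraries.

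The waves of both genes passed in all 3 skin genotypes, where 10.9% of genes passed in iDTR, 0.326% in Bmal1-flox and 0.383% in control. Nr1d1 peaked at ZT 7.78 (SE 0.506 h) in iDTR, ZT 7.69 (SE 0.497 h) in Bmal1-flox and ZT 7.44 (SE 0.421 h) in control skin. Its log2 amplitude was 0.83 in iDTR, 0.89 in Bmal1-flox and 1.00 in control, with SE of 0.11 to 0.12. The 24 h wave accounted for 59.3% of the variance of Nr1d1 in iDTR, 93.3% in Bmal1-flox and 97.9% in control libraries, so the iDTR libraries scattered more about their wave. The SE rest on 1 spread estimate shared by the 3 genotypes. They therefore do not show this larger scatter and are too small for the iDTR wave. Nr1d2 peaked at ZT 8.82 (SE 0.508 h) in iDTR, ZT 11.8 (SE 0.453 h) in Bmal1-flox and ZT 11.04 (SE 0.455 h) in control skin. The shift against control was -2.22 h (SE 0.682, p = 0.00753, adjusted p = 0.166) in iDTR and 0.76 h (SE 0.642, adjusted p = 0.999) in Bmal1-flox. Of all genes, 0.144% were called for a differential wave in iDTR and 0% in Bmal1-flox, where 563 genes had an unadjusted p under 0.05 in limma.

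**Figure D4:**
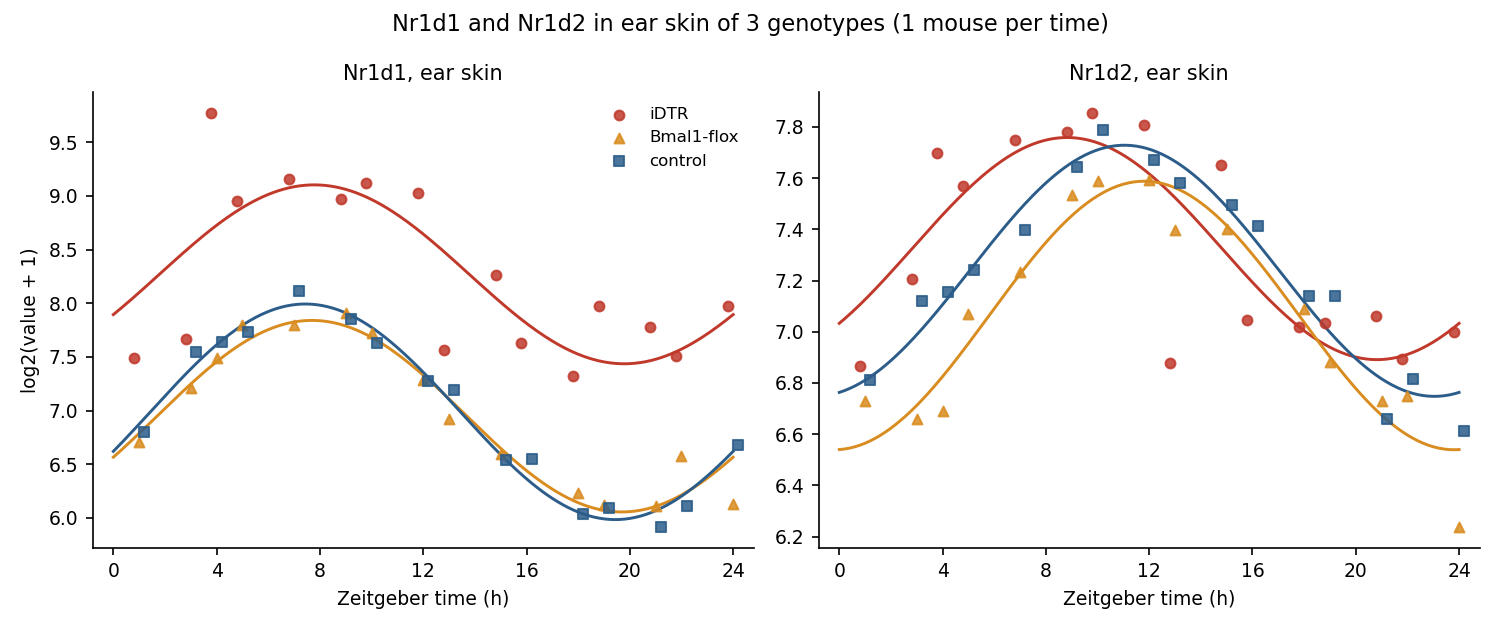
Levels of Nr1d1 (left) and Nr1d2 (right) in ear skin as log2(value + 1) against Zeitgeber time in hours, 1 point per mouse, with the fitted 24 h waves of iDTR, Bmal1-flox and control. The Nr1d1 points of iDTR lie above the control at all of 16 times (159 to 876 in iDTR, against 59.3 to 276 in control as normalized signal), while for Nr1d2 the genotypes overlap.

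In lung, the labels give Nr1d1 292, 288 and 295 in anti-Ly6G and 70.5, 150.5 and 75.2 in IgG libraries at ZT 21, and 48.9, 41.4 and 42.1 in anti-Ly6G and 215, 131 and 147 in IgG at ZT 5. As labelled, the Nr1d1 peak was at ZT 23.5 (SE 0.357 h) in anti-Ly6G and ZT 1.92 (SE 0.322 h) in IgG, hours away from those of the other tissues. The labelled treatment effects were 0.11 (SE 0.29, adjusted p = 0.943) for Nr1d1 and -0.20 (SE 0.21, adjusted p = 0.808) for Nr1d2, with 0% of 15641 genes called. The labelled differential waves had an adjusted p of 0.0631 for Nr1d1 and 0.138 for Nr1d2, where 0.0511% were called. At single labelled times, 0.23% of genes were called at ZT 1, 1.55% at ZT 5 and 0.262% at ZT 21, and neither member was. Without title numbers 1 to 3, the Nr1d1 differences were -1.92 at ZT 5 (adjusted p = 0.00968) and 1.64 at ZT 21 (adjusted p = 0.0239), that of Nr1d2 at ZT 21 was 1.36 (adjusted p = 0.011), and all 3 then passed. The labelled differential wave then had an adjusted p of 0.0407 for Nr1d1 and 0.0559 for Nr1d2, with shifts of -2.02 h for Nr1d1 and -2.20 h for Nr1d2. Because the labels are in doubt, no direction is drawn from these values.

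Along the title numbers, which from 4 on follow the labelled times, the values formed 1 smooth wave. Nr1d1 had 48.9, 40.02 and 60.5 in numbers 1 to 3 and 292, 288 and 295 in numbers 7 to 9. It had 41.4, 42.1 and 49.3 in numbers 19 to 21, and 5.01, 5.38 and 6.48 in numbers 31 to 33. Nr1d2 had 33.5, 24.3 and 36.1 in numbers 1 to 3, 226, 225 and 245 in numbers 13 to 15, and 16.0, 15.8 and 16.2 in numbers 31 to 33. A single wave over the 36 numbers accounted for 95.9% of the variance of Nr1d1 and 92.6% of that of Nr1d2. A wave over the labelled ZT, common to both treatments, accounted for 79.2% for Nr1d1 and 71.9% for Nr1d2, and 1 wave per labelled treatment for 87.9% for Nr1d1 and 82.1% for Nr1d2. In the 33 libraries from number 4 on, the wave over numbers accounted for 96.4% for Nr1d1 and 92.5% for Nr1d2, and the labelled waves per treatment for 92.5% for Nr1d1 and 88.4% for Nr1d2. On the numbers the Nr1d1 wave was highest near 11.4 and the Nr1d2 wave near 14.5, so Nr1d2 again came after Nr1d1. No ZT or treatment was assigned from the numbers.

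**Figure D5:**
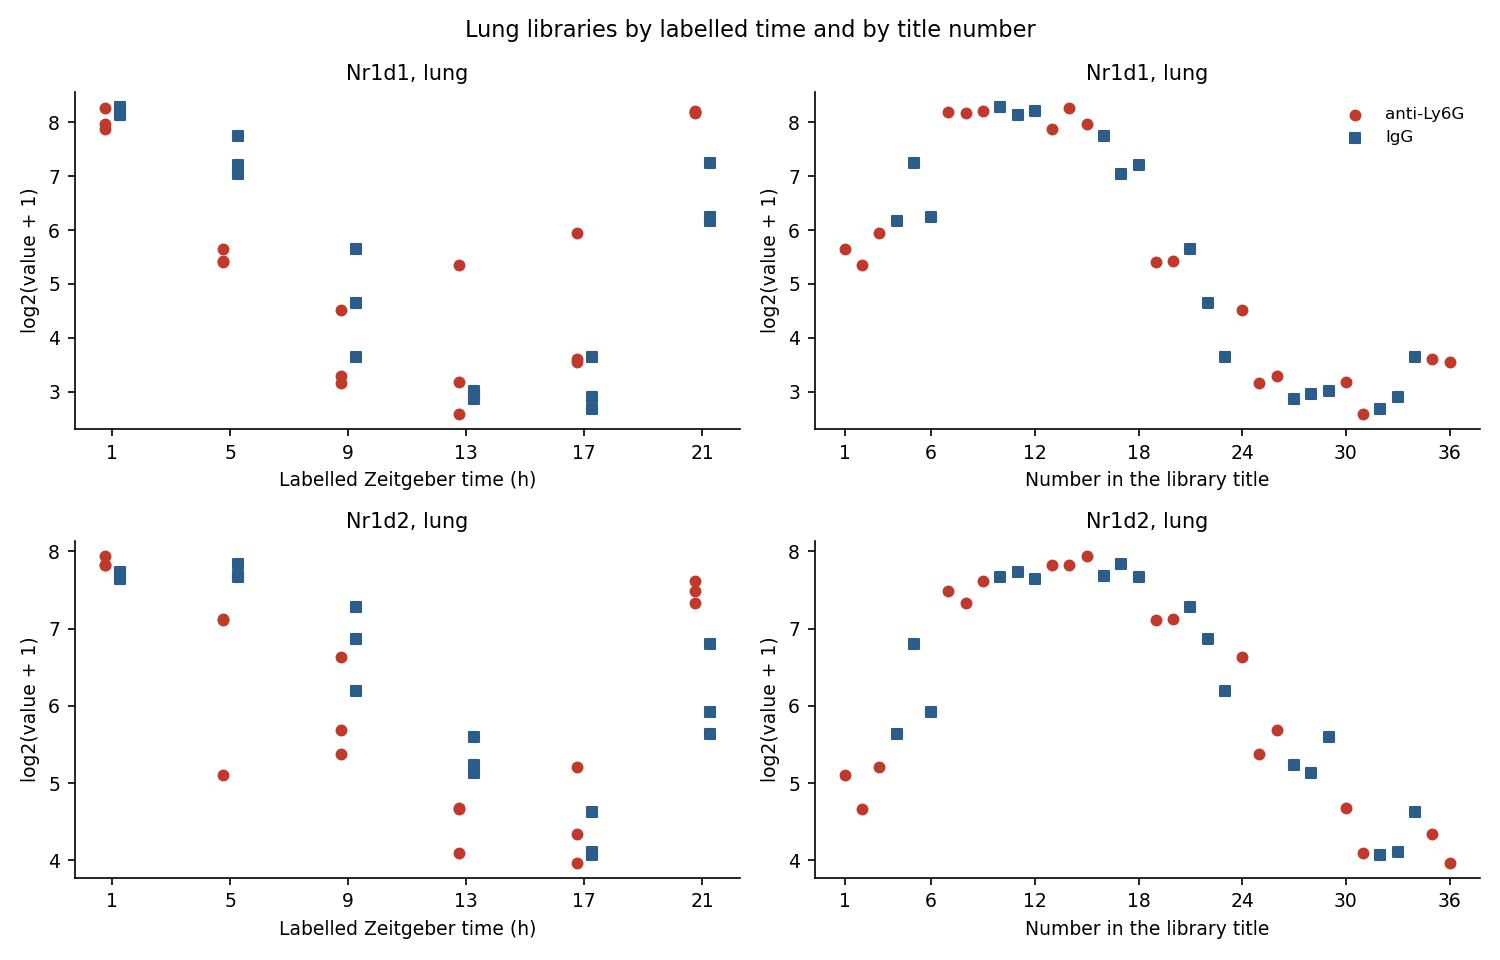
Lung levels of Nr1d1 (top) and Nr1d2 (bottom) as log2(value + 1), 1 point per library, against the labelled Zeitgeber time in hours (left) and against the number in the library title (right), with colours for the labelled treatment. The wave over title numbers accounts for 95.9% of the variance of Nr1d1, against 79.2% for a wave over labelled time common to both treatments and 87.9% for 1 wave per labelled treatment.

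The genes most like the members were sought by Pearson's r of log2 values, centred within each tissue, over all libraries and the 11126 genes tested in every tissue. These libraries share the daily cycle, and the values were not centred within treatment or genotype. The r values therefore hold both the daily cycle and differences in level between groups, such as that of Nr1d1 between iDTR and control skin. The part of each was not tested. The gene most like Nr1d2 was Dbp (r = 0.932), a bZIP activator also driven through E-boxes, with r between 0.861 in bone marrow and 0.949 in lung. Nr1d1 followed at 0.827, then Tef (0.794), a bZIP factor related to Dbp, Bhlhe41 (0.775), which encodes the clock repressor DEC2, Per3 (0.770) and Tns2 (0.692), which encodes a focal adhesion protein. For Nr1d1 the order was Nr1d2 (0.827), Dbp (0.7995), Anxa7 (0.723), Ino80 (0.703), Bhlhe41 (0.675) and Flcn (0.664). Anxa7 encodes an annexin, Ino80 a chromatin remodeler and Flcn folliculin, a regulator of mTORC1 signalling. Ino80 was like Nr1d1 in gut (r = 0.855) and liver (0.823), and not in bone marrow (r = -0.239). Among the repressed targets, Arntl had r = -0.875 with Nr1d2 and -0.625 with Nr1d1. By tissue, r with Nr1d2 ran from -0.937 in lung to -0.386 in bone marrow. With Nr1d1 it ran from -0.732 in lung to -0.045 in skin. Cry1, a cryptochrome repressor, had r = -0.847 with Nr1d1 (-0.965 in liver to -0.334 in skin) and -0.694 with Nr1d2 (-0.879 in liver to -0.316 in bone marrow).

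The other genes of the pathway were taken from 7 lists, which share some genes. In the marrow comparison, where 9.95% of all genes were higher and 7.16% lower, 3 of 9 E-box driven partners were higher and 0 lower, among them Per1, a period repressor (log2 difference 0.72, SE 0.14, adjusted p = 0.000403) and Per3 (0.17, SE 0.05, adjusted p = 0.0171). Of 5 measured REV-ERB repressed clock genes, 1 was higher, Nfil3, a bZIP repressor (0.31, SE 0.06, adjusted p = 0.000397). Of 7 measured repressed metabolic and inflammatory genes, 1 was lower, Nlrp3, the inflammasome sensor (-0.44, SE 0.06, adjusted p = 3.11e-06). Of 6 corepressor genes, 2 were higher, among them Tbl1xr1 (0.14, SE 0.04, adjusted p = 0.0126). None of 3 activators, 1 ROR gene and 6 turnover genes was called. The list medians in marrow lay between -0.14 and 0.10, and the median of all genes was -0.00449. In liver, Per1 rose by 0.93 (SE 0.18, adjusted p = 0.00741) and Fabp7, a fatty acid binding protein known as a REV-ERB target in brain, by 0.42 (SE 0.10, adjusted p = 0.022), and no other listed gene was called. With only genes at a mean of at least 4 tested, 0 genes of the list that holds Fabp7 were called in liver. In gut and in lung as labelled, limma called 0 listed genes. Over all genes, 1932 in gut and 1462 in lung had an unadjusted p under 0.05.

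In Bmal1-flox skin, 1 activator was higher, Npas2, a partner of BMAL1 that stands in 2 lists (0.44, SE 0.08, adjusted p = 0.000199). Per3 was lower (-0.30, SE 0.07, adjusted p = 0.00583). In iDTR skin, calls ran in both directions, as over all genes, of which 30.6% were higher and 32.4% lower. Of 9 E-box driven partners 4 were higher and 4 lower, with Bhlhe40, which encodes the repressor DEC1, at 0.99 (SE 0.07) and Per3 at -0.76 (SE 0.07). The list median was 0.28, against -0.02 for all genes. Of 6 repressed clock genes 3 were higher and 2 lower (median 0.10), with Nfil3 at 0.77 (SE 0.12). Of 8 measured repressed metabolic and inflammatory genes 3 were higher and 4 lower (median 0.12), with the chemokine gene Ccl2 at 2.82 (SE 0.18) and Pck1, a gluconeogenic enzyme, at -1.32 (SE 0.13). Of the other lists, 1 of 3 activators was higher and 1 lower, 1 of 6 corepressor genes was higher and 1 lower, and 3 of 6 turnover genes were higher. With 63% of all genes called, these counts set no list apart.

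In time of day, most repressed clock genes with a wave in gut and liver peaked 8 to 12 h from Nr1d1. In gut, 6 of 6 had a wave in either treatment (24.6% of all genes in anti-Ly6G and 33.6% in IgG). Of these, 5 in anti-Ly6G and 6 in IgG lay 8 to 12 h from the Nr1d1 peak, against 34.3% of all genes with a wave in anti-Ly6G and 31.4% in IgG gut. In liver, 6 had a wave and 5 lay that far in either treatment, against 31.7% of all genes with a wave in anti-Ly6G and 36% in IgG. Arntl peaked at ZT 20.2 (SE 0.398 h) in anti-Ly6G and ZT 21.0 (SE 0.395 h) in IgG liver. The median amplitude of the list was 1.30 in anti-Ly6G and 1.31 in IgG liver, against 0.144 in anti-Ly6G and 0.167 in IgG for all genes. The repressed metabolic and inflammatory genes, 6 measured in each tissue, did not go the same way. In liver, 3 had a wave in anti-Ly6G and 5 in IgG (34.7% of all genes in anti-Ly6G and 42.9% in IgG). Of those, 1 in either treatment lay 8 to 12 h from the Nr1d1 peak. In gut, 2 had a wave in anti-Ly6G and 3 in IgG, of which 0 in anti-Ly6G and 1 in IgG lay that far. In skin, 5 of 6 repressed clock genes had a wave in iDTR, 5 of 6 in Bmal1-flox and 6 of 6 in control, where 10.9% of all genes had one in iDTR, 0.326% in Bmal1-flox and 0.383% in control. Of them, 3 in iDTR, 2 in Bmal1-flox and 4 in control lay 8 to 12 h from the Nr1d1 peak. Of all skin genes with a wave, 54.7% in iDTR, 19.2% in Bmal1-flox and 26.2% in control lay that far, so the iDTR count was near the share of all genes. In marrow only Npas2 of 5 measured had a wave, and it peaked at ZT 19.6 (SE 0.562 h) in anti-Ly6G and ZT 21.2 (SE 0.606 h) in IgG. With only genes at a mean of at least 4 tested, 0 genes of this list had a wave in either marrow group. E-box driven partners had waves in 8 of 9 genes in anti-Ly6G and 9 of 9 in IgG, in gut and in liver alike. In marrow 5 of 9 had a wave in anti-Ly6G and 3 of 9 in IgG, where 0.406% of all genes had one in anti-Ly6G and 1.62% in IgG. Dbp peaked at ZT 6.23 (SE 0.741 h) in anti-Ly6G and ZT 10.2 (SE 0.612 h) in IgG marrow. None of these partners passed the test of a differential wave in marrow, though 5 of 9 had an unadjusted p under 0.05.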

How the data were processed

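Per the labels, libraries from 200 ng of total RNA (NEBNext Ultra kit) gave single reads of 50 nt (HiSeq2500). Per the submitters' processing notes, the tools were CASAVA 1.8, cutadapt 1.7.1, RSEM 1.7.1 and limma 3.46 with mm10, while the protocol in the labels names RSEM 1.2.20 and Kallisto 0.43.1. The authors deposited a linear normalized signal, by a method not given in the sources used here. The values behave like RSEM count estimates over a scaled library size. One read would be 0.0319 to 0.131 units if the smallest value of each column is a gene without reads.

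Groups came from the labels. Values were used as log2(value + 1), and genes with a mean of at least 1 were tested with limma 3.58.1 (R 4.3.3, mean-variance trend, two-sided, Benjamini-Hochberg over the genes of a tissue, threshold 0.05). The antibody model held a term for each ZT, and the skin model a 24 h wave. Waves were F tests of a cosine and a sine, and errors of peak times came by the delta method. Differential waves were F tests of both terms together, and shifts of peak time had no test of their own. Each gene had 1 spread estimate per tissue, shared by the groups of that tissue. The scripts were tested on simulated data. Symbols and gene models came from GENCODE M21. Named genes were the members, the 5 most like each, Thra, check genes and up to 3 called members of each pathway list. Members and lists were chosen with earlier results of these data known. P-values judge differences and waves against the spread between these libraries. Results for some genes of the pathway lists are not reported here.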

Additional observations from a re-analysis of the deposited data

Results flagged for a closer look

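The wave of Nr1d2 in bone marrow differed between anti-Ly6G and IgG libraries by a test of the difference itself (adjusted p = 0.000906), with a peak at ZT 6.14 in anti-Ly6G and ZT 9.89 in IgG. The difference at ZT 1 was 0.45 and at ZT 13 was -0.74 on the log2 scale.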

How the results depend on the processing

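Besides the libraries left out singly, the alternatives were pseudocounts of 0.1 and 5, no filter or a mean of at least 4 (which leaves no value for Nr1d1 in marrow), quantile normalization, robust moderation, a 12 h wave, ZT as a factor and, in the antibody tissues only, each ZT left out. Leaving out gut anti-Ly6G libraries 1 and 6 or lung title numbers 1 to 3, and the pseudocounts for the lung title numbers, were chosen after seeing the data. The rise of Nr1d1 in iDTR skin was 1.21 to 1.35 over the alternatives run for skin, which left out single libraries. In marrow, Nr1d1 at ZT 13 was -1.08 at pseudocount 0.1 (adjusted p = 0.041) and Nr1d2 at ZT 1 was 0.488 after quantile normalization (adjusted p = 0.0374), and both then passed. The Nr1d2 differential wave had an adjusted p of 0.127 without ZT 1 and 0.400 without ZT 13, and the Nr1d1 wave of anti-Ly6G marrow had an amplitude of 0.616 without ZT 5 (adjusted p = 0.0887). Mean effects near 0 changed sign: marrow Nr1d1 0.0921 without ZT 9 and 0.134 without ZT 13, marrow Nr1d2 0.0353 without ZT 13, gut Nr1d1 -0.182 and Nr1d2 -0.160 without ZT 1, gut Nr1d2 -0.0229 without ZT 9 and -0.00924 without the 2 libraries, liver Nr1d1 0.0274 without ZT 9 and 0.000249 without ZT 13. Liver Nr1d2 without ZT 1 was -0.396 (adjusted p = 0.0191). In lung as labelled, the Nr1d1 effect with 1 time left out was -0.0170 (ZT 13), -0.121 (ZT 17) or -0.192 (ZT 21), Nr1d2 was 0.0127 without ZT 5, and Nr1d1 at ZT 5 was -1.76 at pseudocount 5 (adjusted p = 0.0414). The lung differential wave passed with a 12 h wave (adjusted p 0.0139 for Nr1d1 and 0.0124 for Nr1d2), with ZT as a factor (0.0431 for Nr1d1 and 0.0349 for Nr1d2), without ZT 17 (0.00646 for Nr1d1 and 0.0222 for Nr1d2) and, for Nr1d1, without ZT 13 (0.0499). Without lung title numbers 1 to 3, Nr1d1 was -0.131 over the day, -1.92 at ZT 5 (adjusted p = 0.00968), -0.0553 at ZT 13 and 1.64 at ZT 21 (adjusted p = 0.0239), Nr1d2 was -0.107 at ZT 17 and 1.36 at ZT 21 (adjusted p = 0.011), and the Nr1d1 differential wave had an adjusted p of 0.0407. The interval between peaks was 0.475 h in anti-Ly6G marrow without ZT 13, 1.76 h without ZT 1 and 2.67 h without ZT 5 in IgG gut, 2.42 h in IgG liver without ZT 5 and 1.13 h in anti-Ly6G lung without ZT 9. The title-number wave explained 95.9% for Nr1d1 and 92.4% for Nr1d2 at pseudocount 0.1, and 95.7% for Nr1d1 and 93.0% for Nr1d2 at pseudocount 5. The causes were not tested.

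With 1 library left out, the values of Nr1d1 ran from -0.0818 to 0.0438 for the marrow effect, -0.0593 to 0.0869 for gut and -0.0355 to 0.221 for lung. At single ZT, Nr1d1 ran from -0.0441 to 0.651 at ZT 5, -0.946 to -0.522 at ZT 13 (adjusted p 0.0357 to 0.416) and -0.0732 to 0.155 at ZT 21 in marrow, from 0.710 to 1.46 at ZT 1, -0.0500 to 0.290 at ZT 5 and -0.318 to 0.227 at ZT 17 in gut, from -0.155 to 0.0693 at ZT 21 in liver and from -0.0553 to 1.33 at ZT 13 in lung. Nr1d2 ran from -0.0582 to 0.0642 for the gut effect and 0.0582 to 0.146 for iDTR skin. At single ZT it ran from -0.0871 to 0.133 at ZT 5 in gut, -0.336 to 0.0334 at ZT 21 in liver, and in lung -1.62 to -0.615 at ZT 5, -0.107 to 0.513 at ZT 17 and 1.12 to 1.704 at ZT 21. The adjusted p of the lung differential wave ran from 0.0216 to 0.152 for Nr1d1 and 0.0378 to 0.240 for Nr1d2. That of Nr1d2 in marrow ran from 0.000142 to 0.00361 and kept its side of the threshold.

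The replicate block within ZT left the gut effects at 0.041 (adjusted p = 0.937) for Nr1d1 and 0.00076 (adjusted p = 0.998) for Nr1d2. In skin, with ZT as a block, Nr1d1 was 1.28 (adjusted p = 1.44e-12) in iDTR and -0.04 (adjusted p = 0.884) in Bmal1-flox, and the block changed no call. In gut the same numbers did not pair the libraries: deviations of 18 pairs correlated at -0.221 to 0.184 (median 0.0305). Nr1d1 rested on as few as 14.8 recovered reads in marrow and 12.9 in liver.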
